A study of Mus musculus with 53 samples.

Results

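Dorsal skin of wild-type CB6 mouse embryos at embryonic day 18.5 (E18.5) was compared with dorsal skin of wild-type CB6 embryos at embryonic day 16.5 (E16.5), 3 arrays at each age. These 6 arrays were taken by their titles and are 6 of the 53 samples of a series on mouse epithelial tissues. They belong to a table of 26 arrays in 9 groups measured on the Mouse 430 expression array, which reads each gene through 1 or more probe sets. The labels name no treatment, and both ages of skin share the strain and the genotype. Among the other groups of the table, the E18.5 bladder arrays are from Get1 +/- mice. The E18.5 skin arrays came from an earlier study of the same laboratory, per the series' design text, so the age of the embryos and the study of origin cannot be told apart in any value below. Nothing in the labels says that the arrays of an age came from separate embryos or litters. How much of the array-to-array spread behind the p-values is technical is therefore unknown. In every list of values the E18.5 arrays stand in the order of replicates 1, 2 and 3 (numbered in accession order) and the E16.5 arrays in the order of replicates 6, 7 and 8 (numbered as in their titles).

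The skin of a mouse embryo builds its barrier in the last days before birth. Keratinocytes leave the basal layer, switch keratins, and lay down cornified envelope proteins and lipids that keep water in. Hair follicles grow down into the dermis at the same time, and their inner cells start to make the keratins of the inner root sheath, the sleeve that guides the emerging shaft, and then those of the shaft itself. Melanocytes settle in the follicles, and adipocytes fill with lipid below the dermis.

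Levels are log2(intensity + 16) after quantile normalization, so that a level of 4.00 is what a deposited intensity of 0 gives, and 1 unit is a doubling of a bright signal. Differences are E18.5 minus E16.5 on that scale, given with standard errors (SE) from the fit where an error is printed, and fold changes are taken on the same scale, which understates the change of dim genes. The words rose, fell and called mark a gene with an at least 2-fold difference at a limma adjusted p under 0.05 (two-sided, Benjamini-Hochberg over all named genes). No level of 1 gene is set against the level of another, because probe sets differ in brightness. The tissue label was checked against its defining genes. Krt5, a keratin of the basal layer, stood at 13.21, 13.25 and 13.17 at E18.5, against 13.63, 13.68 and 13.73 at E16.5, and Krt10, a keratin of the suprabasal layers, at 13.53, 13.63 and 13.56 at E18.5, against 13.21, 13.16 and 13.00 at E16.5. Col3a1, a collagen of the dermis, stood at 13.40, 13.32 and 13.25 at E18.5, against 13.31, 13.31 and 13.20 at E16.5, and Twist2, a transcription factor of dermal fibroblasts, at 9.82, 9.68 and 9.61 at E18.5, against 9.60, 9.61 and 9.64 at E16.5. All of these were bright on the 6 arrays. The female transcript Xist was bright on E18.5 replicate 3 (5.71, 5.94 and 12.06 at E18.5) and on E16.5 replicates 6 and 8 (11.45, 4.92 and 11.59 at E16.5), so both sexes were present at both ages. The arrays of an age were thus not all from the same RNA. Xist was bright on fewer arrays at E18.5 than at E16.5, and sex was not part of the fit.

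Some facts on the arrays touch many of the results. The 3 arrays of an age differed more from each other at E18.5 (SD of log2 differences over all genes 0.475 to 0.524) than at E16.5 (0.309 to 0.345), and less than arrays of different ages (0.611 to 0.730). The spread behind every test was pooled over all 26 arrays. An array of another group, proximal small intestine E18.5 replicate 4, carried epidermal genes at levels close to those of skin: Krt5 read 12.53 there, against 4.14 and 4.45 on the other small intestine arrays, and Lor read 12.01, against 4.72 and 5.30. That array widens the pooled spread of epidermal genes and leaves the skin levels as they are, so counts for epidermal lists are also given from a fit over 25 arrays without it. This second fit was chosen after the data were seen. It changes no difference between the ages, and only the errors and p-values.

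Of 18194 named genes, 808 changed at least 2-fold at a limma adjusted p under 0.05 (4.44% of those tested), 444 of them higher at E18.5 (2.44%) and 364 lower (2.00%). Counts of called list members below are to be read against these shares, and a count near them says nothing particular about its list. The median change of all genes was 0.035. A change of 4-fold or more was reached by 80 genes that rose and 84 that fell. The 25-array fit called 917 genes (5.04%), 485 higher (2.67%) and 432 lower (2.37%), and these include all 808. Leaving out 1 skin array at a time called 3.77% to 5.12% of genes, and a fit on the 6 skin arrays alone 4.07%. With the intensities as deposited, without normalization between arrays, the share of calls that were higher was 33.5%, against 55.0% after quantile normalization, and the count of calls was 996. For 7100 genes (39.0%) the 3 arrays of one age did not overlap with the 3 of the other, so a lack of overlap alone is common here; 773 of the 808 called genes had it.

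**Figure D1:**
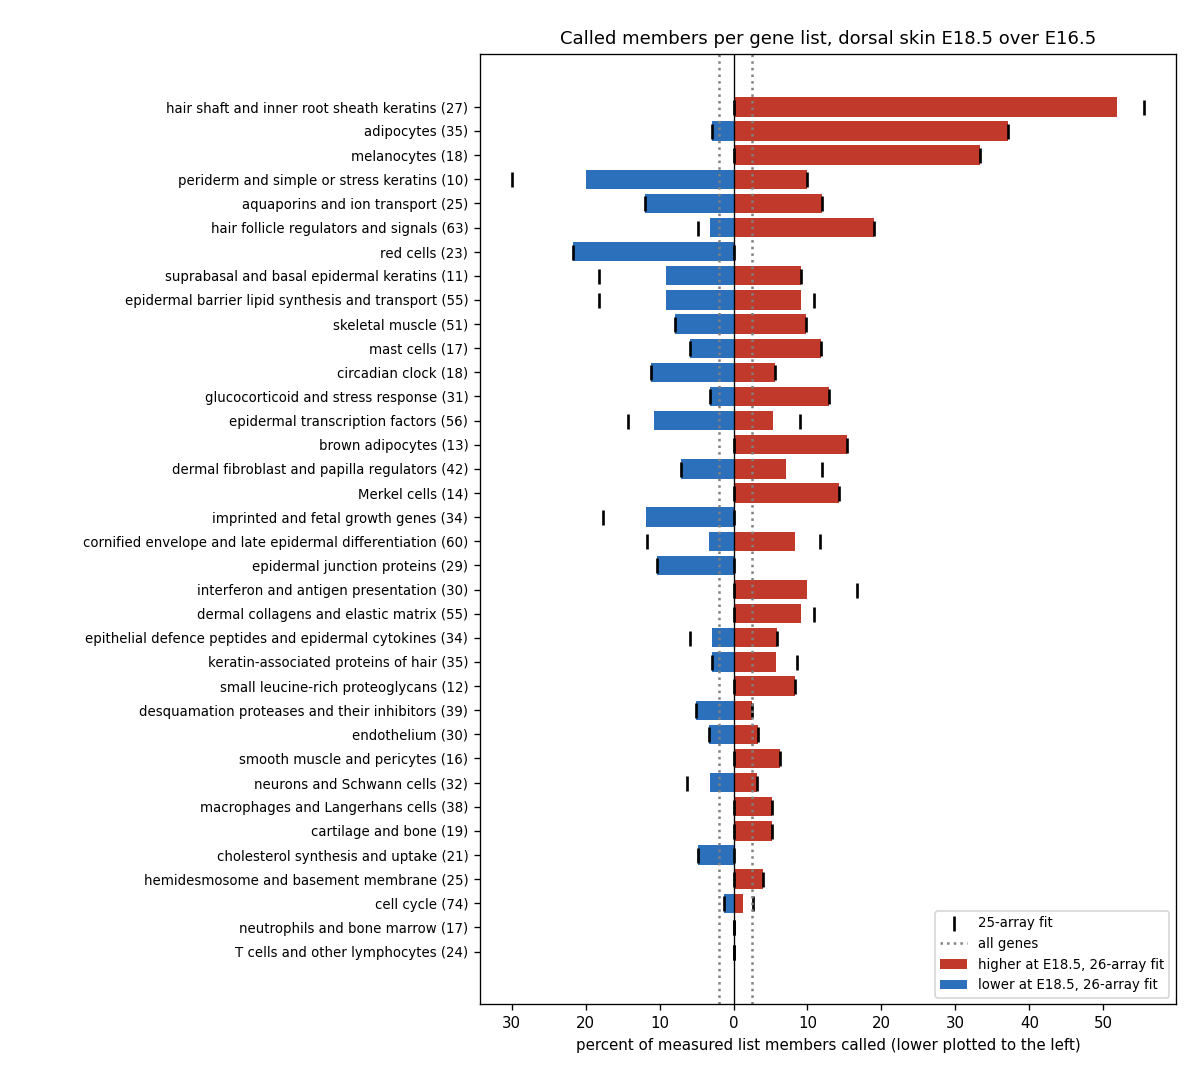
Percent of the measured members of each gene list that were called higher (red bars, to the right) or lower (blue bars, to the left) at E18.5 than at E16.5, with the number of measured members after the list's name. Black ticks give the 25-array fit and dotted lines the percent over all genes (2.44% higher, 2.00% lower). Hair shaft and inner root sheath keratins, adipocyte genes and melanocyte genes have the longest bars to the right.

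The keratins of the growing hair gave the widest rise of all named genes and several of the next. Of 27 measured genes of the hair shaft and inner root sheath, 14 rose and none fell, against 2.44% and 2.00% of all genes. The median change of the list was 1.39. The widest differences were in the inner root sheath, whose type I keratins Krt25, Krt27 and Krt28 and type II keratins Krt71 and Krt73 pair to form its filaments. The genes of these 5 proteins lie in the keratin clusters of chromosome 11 and chromosome 15. Their promoters are shown here to let the start regions of genes that moved together be compared: each is the 200 bases before the transcript start in RefSeq (GRCm38.p6), 5′ to 3′ on the gene's strand, with each match to TATAAA, the core of the TATA box, in capitals. Krt25 is at chr11:99322952-99323151 (minus strand), Krt27 at chr11:99351119-99351318 (minus strand), Krt28 at chr11:99374904-99375103 (minus strand), Krt71 at chr15:101743098-101743297 (minus strand) and Krt73 at chr15:101802361-101802560 (minus strand).
Krt25: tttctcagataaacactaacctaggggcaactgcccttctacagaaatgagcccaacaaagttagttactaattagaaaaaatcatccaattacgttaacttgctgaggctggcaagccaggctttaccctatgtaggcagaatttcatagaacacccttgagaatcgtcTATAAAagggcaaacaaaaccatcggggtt
Krt27: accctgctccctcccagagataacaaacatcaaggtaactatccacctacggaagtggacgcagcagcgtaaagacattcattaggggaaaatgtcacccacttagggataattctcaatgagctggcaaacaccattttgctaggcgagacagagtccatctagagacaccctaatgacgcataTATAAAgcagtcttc
Krt28: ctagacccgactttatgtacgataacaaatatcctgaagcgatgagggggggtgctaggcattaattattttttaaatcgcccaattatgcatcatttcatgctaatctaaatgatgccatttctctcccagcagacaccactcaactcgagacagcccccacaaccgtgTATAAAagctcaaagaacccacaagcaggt
Krt71: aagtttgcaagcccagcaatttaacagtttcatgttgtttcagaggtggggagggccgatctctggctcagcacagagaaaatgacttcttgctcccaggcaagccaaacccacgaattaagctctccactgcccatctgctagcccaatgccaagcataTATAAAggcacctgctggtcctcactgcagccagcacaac
Krt73: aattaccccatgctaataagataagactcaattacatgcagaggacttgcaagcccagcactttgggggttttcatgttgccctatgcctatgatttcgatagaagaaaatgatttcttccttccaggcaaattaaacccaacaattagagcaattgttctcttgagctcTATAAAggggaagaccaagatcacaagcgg
All 5 hold TATAAA, the match beginning 30, 15, 30, 40 and 30 bases before the start in the order printed. Among 27025 promoters of the same length, searched on both strands, 10.6% hold it. Of 20 hair keratin list members with a promoter in the table, 10 hold it, and of all called genes with a promoter 37 of 335 that rose (11.0%) and 12 of 279 that fell (4.30%) do. No promoter of the 5 holds TTCAAAG (3.56% of all promoters) or TGANTCA (5.55%), the letters of the LEF/TCF and AP-1 motifs searched in the same way. A match is a description of the letters and not a site of binding. Aligned pairwise, the 5 sequences were 46.9% to 56.9% identical.

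Krt27 showed the widest difference of all, with levels of 10.87, 13.47 and 12.19 at E18.5, against 4.00, 4.00 and 4.09 at E16.5, a log2 difference of 8.15 ± 0.365 SE at an adjusted p of 1.6e-12. At E16.5 it was listed at or near 0 on all 3 arrays, so no fold is given. Its partner-type keratin Krt71 read 9.64, 12.13 and 10.85 at E18.5, against 4.56, 4.26 and 4.47 at E16.5 (difference 6.45 ± 0.382 SE, adjusted p 1.42e-10). Krt25 read 9.62, 11.80 and 10.86 at E18.5, against 4.28, 4.01 and 4.01 at E16.5, a difference of 6.66 ± 0.335 SE at an adjusted p of 8.39e-12. In all of these the lowest E18.5 array stood several units above the highest E16.5 array. Krt73, a keratin of the sheath's cuticle, differed by 4.93 ± 0.344 SE and Krt28 by 4.27 ± 0.345 SE, again with every E18.5 array above every E16.5 array. Tchh encodes trichohyalin, the protein that hardens the inner root sheath and the medulla. It stood at 8.87, 11.20 and 10.09 at E18.5, against 5.44, 5.74 and 5.75 at E16.5, a rise of 21.3-fold with an adjusted p of 1.24e-08. Padi3, the enzyme that modifies trichohyalin, rose 2.62-fold (difference 1.39 ± 0.351 SE, adjusted p 0.0105), a call that was lost without E18.5 replicate 2 or E16.5 replicate 6.

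Keratins of other follicle layers also rose, with larger errors. Krt75, a keratin of the companion layer, differed by 2.61 ± 0.639 SE and Krt72, of the sheath's cuticle, by 2.46 ± 0.588 SE. Krt35, an early keratin of the hair matrix and shaft, stood at 12.40, 14.61 and 13.53 at E18.5, against 7.70, 8.77 and 4.00 at E16.5. It had an adjusted p of 0.00064, and at E16.5 it was listed near 0 on replicate 8 and clearly above it on replicates 6 and 7. Among the hair keratins of the cortex, Krt31 rose by 1.46 (adjusted p 0.0274), while Krt33b differed by 0.76 and Krt34 by 0.70 without passing the test, and Krt86 stood at 4.56, 4.86 and 4.45 at E18.5, against 4.64, 4.57 and 4.66 at E16.5. S100a3, a calcium-binding protein of the hair cuticle, rose too (adjusted p 0.00741) with a wide spread at E18.5, at 5.16, 8.57 and 6.50 at E18.5, against 4.46, 4.50 and 4.53 at E16.5. Without E18.5 replicate 2, Krt31, Krt72 and Krt75 were not called, and Krt31 was not called either without E18.5 replicate 3 or E16.5 replicate 6 or 7.

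The E18.5 arrays did not carry these genes equally. In 20 of the 27 genes replicate 2 was highest, replicate 3 next and replicate 1 lowest, and so it was in 19 of the 21 genes whose E18.5 arrays spanned at least 0.5. The summed intensity of the list was 11088, 53894 and 24965 at E18.5, against 1754, 2380 and 1905 at E16.5. With E18.5 replicate 2 left out, 9 of the 27 were called (3.97% of all genes then), and a fit on the 6 skin arrays alone also called 9 (4.07% of all genes). Fewer follicle cells and less keratin RNA per cell cannot be told apart in whole skin, and the same holds for every cell type below.

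**Figure D2:**
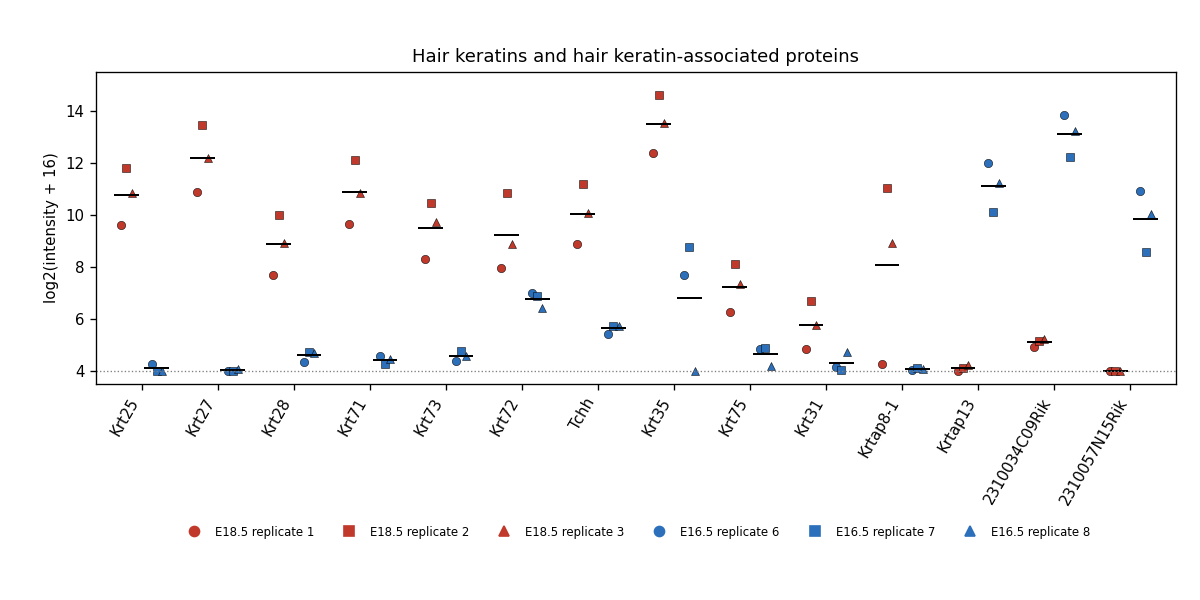
log2(intensity + 16) of hair keratins, trichohyalin (Tchh) and keratin-associated proteins on each of the 6 arrays, E18.5 in red and E16.5 in blue, with 1 symbol per replicate and a black line at each group's mean. The dotted line at 4 is the level of an intensity of 0. The inner root sheath keratins are near the dotted line at E16.5 and replicate 2 is the highest E18.5 array in them, while Krtap13, 2310034C09Rik and 2310057N15Rik are near 4 to 5 at E18.5 and bright at E16.5.

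Keratin-associated proteins, which cross-link the keratins of the hair shaft, moved in few members. Of 35 measured members 2 rose and 1 fell, against 2.44% and 2.00% of all genes, with a median change of 0.16. Krtap8-1, a glycine- and tyrosine-rich member, stood at 4.27, 11.02 and 8.93 at E18.5, against 4.04, 4.10 and 4.07 at E16.5. It was near 0 on E18.5 replicate 1 and on all E16.5 arrays, and high on E18.5 replicates 2 and 3 (difference 4.00 ± 0.898 SE, adjusted p 0.00442). Krtap17-1 rose by 1.08 (adjusted p 0.0108). Krtap17-1 was not called without E18.5 replicate 2 or replicate 3. Neither Krtap8-1 nor Krtap17-1 was called in the fit on the 6 skin arrays (adjusted p 0.164 and 0.0604). Without E18.5 replicate 1, 4 members were called higher.

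The member that fell, Krtap13, did so together with 2 neighbouring genes on chromosome 16, and they gave 3 of the 6 largest falls of all named genes. Krtap13 stood at 4.00, 4.13 and 4.23 at E18.5, against 11.99, 10.13 and 11.25 at E16.5, a difference of -7.0 ± 0.315 SE at an adjusted p of 1.6e-12. Its neighbour 2310034C09Rik stood at 4.91, 5.17 and 5.24 at E18.5, against 13.85, 12.23 and 13.23 at E16.5 (-8.0 ± 0.281 SE, adjusted p 4.22e-14). The next gene, 2310057N15Rik, stood at 4.01, 4.00 and 4.00 at E18.5, against 10.93, 8.57 and 10.04 at E16.5 (-5.84 ± 0.331 SE, adjusted p 6.7e-11). Krtap13 and 2310057N15Rik were listed at or near 0 at E18.5, and all 3 genes were bright at E16.5, with replicate 6 highest, replicate 8 next and replicate 7 lowest. The 200 bases before their starts are shown because the genes neighbour each other and moved as one, again with TATAAA in capitals: Krtap13 at chr16:88751629-88751828 (minus strand), 2310034C09Rik at chr16:88758647-88758846 (plus strand) and 2310057N15Rik at chr16:88774207-88774406 (minus strand).
Krtap13: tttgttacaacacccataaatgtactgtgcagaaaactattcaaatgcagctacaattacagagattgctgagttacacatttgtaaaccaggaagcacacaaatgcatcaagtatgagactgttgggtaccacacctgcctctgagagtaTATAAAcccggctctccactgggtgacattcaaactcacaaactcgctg
2310034C09Rik: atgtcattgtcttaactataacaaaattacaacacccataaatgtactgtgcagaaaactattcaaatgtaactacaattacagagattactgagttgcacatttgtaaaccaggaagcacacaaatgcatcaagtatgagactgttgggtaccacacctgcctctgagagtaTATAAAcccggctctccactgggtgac
2310057N15Rik: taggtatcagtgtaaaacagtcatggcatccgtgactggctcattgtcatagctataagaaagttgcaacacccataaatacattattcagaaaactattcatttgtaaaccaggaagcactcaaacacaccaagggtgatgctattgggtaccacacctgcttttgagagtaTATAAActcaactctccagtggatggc
TATAAA begins 49, 27 and 27 bases before the start. The promoters of Krtap13 and 2310034C09Rik were 78.4% identical and share an unbroken run of 102 bases, and each was 61.9% or 65.9% identical to that of 2310057N15Rik. The transcripts and the probes of the 3 genes were not compared, so how the signal divides among them is uncertain. Other genes of the same stretch did not pass the test. The probe set that the platform annotation gives to Krtap13-1, a name that RefSeq lists as a symbol of its own and also as a synonym of 2310057N15Rik, stood at 5.11, 5.75 and 5.40 at E18.5, against 5.28, 5.47 and 5.09 at E16.5. Krtap14 stood at 4.32, 4.32 and 4.42 at E18.5, against 4.52, 4.53 and 4.40 at E16.5, and Krtap15 at 4.53, 4.47 and 4.46 at E18.5, against 4.42, 4.59 and 4.38 at E16.5.

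Among regulators and signals of the follicle, rises outnumbered falls. Of 63 measured members 12 rose and 2 fell, against 2.44% and 2.00% of all genes, with a median change of 0.26. Of the 12 that rose 7 had a second probe set, and 3 of those reached 2-fold on it. Shh, the hedgehog ligand made by follicle epithelium, stood at 10.04, 10.44 and 9.99 at E18.5, against 8.08, 8.38 and 8.40 at E16.5 and rose 3.65-fold (adjusted p 0.0386 over 26 arrays and 2.46e-06 over 25). The 26-array call of Shh was lost without any 1 of the 6 skin arrays. Lhx2, a transcription factor of the follicle bud and stem cells, stood at 9.87, 10.41 and 9.89 at E18.5, against 7.96, 8.16 and 7.83 at E16.5 and rose 4.20-fold (adjusted p 2.28e-06). Hoxc13 and Msx2, transcription factors of the differentiating shaft, rose 3.54-fold (adjusted p 0.000343) and 2.96-fold (adjusted p 0.00373). Among the ligands, Wnt10a rose 3.63-fold (adjusted p 0.00637) and Bmp4 2.67-fold (adjusted p 0.000209). Corin, a protease of the dermal papilla, rose 3.32-fold, and Cux1, a transcription factor of the inner root sheath lineage, 2.37-fold. In each of these genes the 3 E18.5 arrays stood above the 3 E16.5 arrays. Cux1 was not called from the mean of its probe sets. The members that fell were Dkk4, a Wnt inhibitor of early placodes, with 5.11, 4.85 and 4.80 at E18.5, against 6.13, 6.02 and 6.08 at E16.5, and Crabp1, a retinoid-binding protein of the dermal papilla, with 8.44, 8.31 and 8.14 at E18.5, against 9.84, 9.67 and 9.67 at E16.5. Edar, the ectodysplasin receptor of placodes, differed by 0.88 (adjusted p 0.0111), which is under 2-fold, and the Wnt effector Lef1 by -0.15 (adjusted p 0.867).

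Most keratins of the epidermis between the follicles did not pass the test. Of 11 measured basal and suprabasal keratins 1 rose and 1 fell, with a median change of -0.26, and the 25-array fit called 1 and 2. Over 26 arrays, Krt5 and Krt14, the basal pair, differed by -0.47 (adjusted p 0.916) and -0.61 (adjusted p 0.763), and Krt1 and Krt10, the suprabasal pair, by 0.61 (adjusted p 0.853) and 0.45 (adjusted p 0.877). These p-values carry the spread widened by small intestine replicate 4, which read Krt5, Krt14, Krt1 and Krt10 at 12.53, 9.31, 11.71 and 12.42. They are therefore not evidence of no change, and in Krt5 and Krt10 the arrays of the ages did not overlap. Each difference is under 2-fold, so the 25-array fit, which changes no difference, could not call it. The largest change of the list was in Krt77, a type II keratin of the suprabasal epidermis. It stood at 7.12, 7.80 and 7.92 at E18.5, against 13.36, 13.42 and 13.37 at E16.5. The arrays within each age lay within 1 unit, the ages lay more than 5 units apart, and the fall was 54.6-fold (difference -5.77 ± 0.205 SE, adjusted p 4.22e-14). Krt79, a keratin of the hair canal and sebaceous duct, moved the other way, with 10.93, 11.90 and 11.24 at E18.5, against 8.26, 8.85 and 8.54 at E16.5, a rise of 7.00-fold (adjusted p 2.36e-05). Krt80 stood at 9.48, 10.30 and 10.45 at E18.5, against 11.17, 11.77 and 11.69 at E16.5 and was called lower in the 25-array fit (adjusted p 0.00108) and not over 26 arrays (adjusted p 0.316).

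The genes of the cornified envelope that were called moved in both directions. Of 60 measured members 5 rose and 2 fell over 26 arrays, against 2.44% and 2.00% of all genes. The 25-array fit called 7 higher and 7 lower, against 2.67% and 2.37% of all genes. The median change of the list was 0.02. Its summed intensity was 117283, 115779 and 142813 at E18.5, against 115174, 149719 and 135224 at E16.5, and the 2 ranges overlap. Lor, which encodes loricrin, the main protein of the envelope, stood at 11.48, 11.49 and 11.73 at E18.5, against 11.58, 11.63 and 11.22 at E16.5. Flg, the source of filaggrin, which bundles keratin filaments, stood at 12.26, 12.28 and 12.55 at E18.5, against 10.42, 12.30 and 11.44 at E16.5, lower on E16.5 replicate 6 than on any other array (adjusted p 0.109 in the 25-array fit). Among small proline-rich proteins, which cross-link the envelope, Sprr2h stood at 8.84, 8.56 and 8.86 at E18.5, against 5.58, 6.74 and 6.22 at E16.5 and rose 5.96-fold (adjusted p 3.15e-05), and Sprr2d rose 4.54-fold (adjusted p 0.0144). The only probe set of Sprr2h has a name that marks shared sequence, and the share of its signal from other genes was not tested. Sprr1b went the other way, with 7.25, 6.07 and 7.92 at E18.5, against 11.19, 11.13 and 11.45 at E16.5, a fall of 18.1-fold (difference -4.18 ± 0.459 SE, adjusted p 2.18e-06). Sprr3 stood at 4.00, 4.15 and 4.58 at E18.5, against 6.31, 6.2 and 6.25 at E16.5 and was called lower in the 25-array fit (adjusted p 0.00112).

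Late cornified envelope genes also moved both ways. Lce3f stood at 4.77, 4.35 and 4.83 at E18.5, against 9.65, 9.24 and 10.04 at E16.5, a difference of -5.0 ± 1.119 SE (adjusted p 0.00437), and Lce3c at 6.51, 7.12 and 6.87 at E18.5, against 8.29, 8.41 and 9.06 at E16.5 (adjusted p 0.00646 in the 25-array fit). Of the Lce1 genes, Lce1l rose 2.97-fold (adjusted p 0.0355), and Lce1a1 (11.80, 12.03 and 12.45 at E18.5, against 9.61, 11.09 and 10.35 at E16.5) and Lce1f (11.53, 11.27 and 11.96 at E18.5, against 9.01, 11.03 and 10.37 at E16.5) were called higher in the 25-array fit (adjusted p 0.00418 and 0.0431). In all 3 of these Lce1 genes replicate 6 was the lowest E16.5 array: of 20 list members whose E16.5 arrays spanned at least 0.5, 18 had replicate 7 highest, replicate 8 next and replicate 6 lowest. Without that array 1 of the 60 was called higher and 2 lower, and Lce1l, Sprr2d and Tgm5 were not called. Lce1l was not called either without E16.5 replicate 8 or E18.5 replicate 3. Members of this family are close in sequence, and the share of signal that crosses between them was not tested.

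Enzymes and other proteins of the same list also moved both ways. Tgm5, a transglutaminase of the envelope, rose 2.16-fold (adjusted p 5.29e-05). Tgm1, the transglutaminase that anchors the envelope, stood at 9.14, 9.42 and 9.84 at E18.5, against 10.43, 10.61 and 10.69 at E16.5, and Ivl, which encodes involucrin, at 10.93, 10.24 and 10.97 at E18.5, against 11.80, 11.84 and 11.84 at E16.5. Both were called lower in the 25-array fit and not over 26 arrays, with adjusted p of 0.00643 for Tgm1 and 0.0203 for Ivl, against 0.355 and 0.0506 over 26 arrays. The arrays of the 2 ages did not overlap in either gene, and the second probe set of Ivl differed by -1.16.

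**Figure D3:**
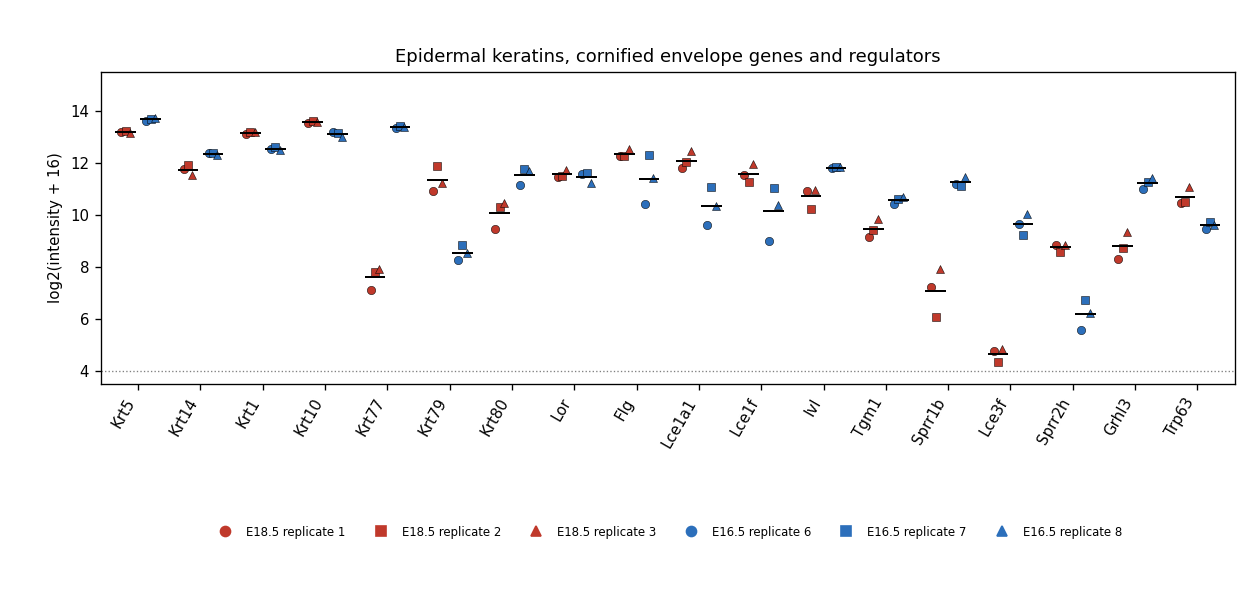
log2(intensity + 16) of epidermal keratins, cornified envelope genes, Grhl3 and Trp63 on each of the 6 arrays, E18.5 in red and E16.5 in blue, with 1 symbol per replicate and a black line at each group's mean. Krt5, Krt14, Krt1, Krt10 and Lor lie within 1 unit at both ages, Krt77, Sprr1b and Lce3f are lower at E18.5, and Krt79 and Sprr2h are higher.

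Most genes of the periderm, the transient outer cell layer, and of simple or stressed epithelia had a negative difference (8 of 10 measured members). The median change of the list was -0.87. Of the 10 members 1 rose and 2 fell, against 2.44% and 2.00% of all genes. The 25-array fit called 3 lower and the fit on the 6 skin arrays 4. Krt7 stood at 5.60, 6.28 and 6.10 at E18.5, against 7.50, 8.38 and 8.13 at E16.5, a fall of 4.02-fold (adjusted p 5.49e-05), and Krt19 at 4.41, 5.45 and 4.83 at E18.5, against 6.24, 6.53 and 6.37 at E16.5, a fall of 2.79-fold (adjusted p 0.000896). Krt17, which is also a keratin of follicle epithelium, was the member that rose (3.5-fold, adjusted p 0.000685). Its second probe set did not reach 2-fold, and Krt17 was not called from the mean of its probe sets. Krt8 differed by -0.55 and Krt18 by -0.17, and neither passed the test (adjusted p 0.514 and 0.922).

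Lipid genes of the barrier moved in both directions. Of 55 measured members 5 rose and 5 fell, against 2.44% and 2.00% of all genes. The counts were 6 and 10 in the 25-array fit, and the median change was -0.25. Scd1, a desaturase strong in sebaceous glands, stood at 8.49, 9.75 and 10.42 at E18.5, against 7.36, 7.27 and 7.42 at E16.5 and rose 4.59-fold (adjusted p 0.0007). Alox12e, an epidermal lipoxygenase, rose 4.18-fold (adjusted p 2.48e-05), and Degs2, an enzyme of phytoceramide synthesis, 3.36-fold (adjusted p 0.00172). On the other side, Sptlc3, a subunit of the enzyme that starts sphingolipid synthesis, stood at 7.43, 7.30 and 8.03 at E18.5, against 9.34, 9.33 and 9.58 at E16.5 and fell by 1.83 on the log2 scale (adjusted p 0.0455). Far2, which reduces fatty acids to alcohols, fell by 1.82 (adjusted p 0.00927), and Dgat2, which makes triglycerides, by 1.56 (adjusted p 0.000361). The call of Sptlc3 was lost without any 1 of the 6 skin arrays. The 25-array fit added the barrier genes Alox12b (9.22, 9.12 and 10.17 at E18.5, against 10.90, 11.22 and 11.27 at E16.5, adjusted p 0.0182) and Cyp4f39 (8.12, 8.44 and 8.83 at E18.5, against 9.74, 9.65 and 9.88 at E16.5, adjusted p 0.0033) to those that fell. Abca12, the lipid transporter of lamellar granules, differed by -0.99, just under 2-fold (adjusted p 0.0488).

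Among 56 measured transcription factors of the epidermis 3 rose and 6 fell, against 2.44% and 2.00% of all genes. The counts were 5 and 8 in the 25-array fit, and the median change was -0.06. Grhl3, also known as Get1, a regulator of barrier formation, stood at 8.30, 8.74 and 9.35 at E18.5, against 10.99, 11.26 and 11.44 at E16.5. The ages did not overlap and lay 2.43 units apart. The call depended on the fit, with an adjusted p of 0.0788 over 26 arrays, 1.31e-07 over 25 arrays and 0.00699 over the 6 skin arrays. Ovol1, a repressor of the differentiating layers, fell 2.33-fold (adjusted p 0.000516), and Ehf, an ETS factor of epithelia, 2.27-fold (adjusted p 0.0259). Trp63, the master regulator of stratified epithelia, stood at 10.46, 10.51 and 11.07 at E18.5, against 9.48, 9.72 and 9.63 at E16.5 and was called higher in the 25-array fit (adjusted p 0.0127) and not over 26 arrays (adjusted p 0.394). The vitamin D receptor Vdr rose 3.13-fold (adjusted p 0.00922; second probe set 1.45), and Sox21, a factor of the hair cuticle, 3.00-fold (adjusted p 0.00825). Without E18.5 replicate 1 the counts over 26 arrays were 5 and 4. The call of Ehf was lost without E18.5 replicate 1 or 2 or E16.5 replicate 7 or 8, and that of Vdr without E18.5 replicate 2. Ovol1, Ehf and Sox21 were not called from the mean of their probe sets. Klf4, a barrier factor, differed by -0.44 (adjusted p 0.686). Falls in Ppard (-3.04, adjusted p 3.86e-05) and Jund (-2.48, adjusted p 5.31e-07) were read on the brightest probe set, and the second probe set of each was dim at both ages.

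Junction genes gave 3 falls among 29 measured members and no rise, against 2.00% and 2.44% of all genes. The median change was -0.12. Cldn4, a claudin of tight junctions, stood at 7.22, 7.61 and 8.43 at E18.5, against 9.99, 10.15 and 10.25 at E16.5 and fell 5.20-fold (adjusted p 0.00157), and the gap junction gene Gjb2 fell 2.54-fold (adjusted p 0.0013). Ocln, which encodes occludin, split at E18.5, with 5.72, 6.63 and 9.32 at E18.5, against 9.15, 9.14 and 9.30 at E16.5, and its ages overlap. It was not called without E18.5 replicate 1 or 2. Of 39 measured proteases and inhibitors of desquamation 1 rose and 2 fell, against 2.44% and 2.00% of all genes. The one that rose, Wfdc21, a secreted protein of the whey acidic protein family, stood at 9.23, 10.62 and 10.42 at E18.5, against 4.75, 5.66 and 5.32 at E16.5, a rise of 28.7-fold (difference 4.84 ± 0.431 SE, adjusted p 1.03e-07). Of 34 defence peptides and epidermal cytokines 2 rose and 1 fell (2 in the 25-array fit), again few beside the shares of all genes. The interleukin-1 family member Il1f9 stood at 7.63, 7.75 and 8.20 at E18.5, against 10.63, 11.05 and 11.12 at E16.5 and fell 8.43-fold (adjusted p 0.000797), and Il1f6 stood at 6.59, 6.96 and 7.71 at E18.5, against 8.89, 9.54 and 9.41 at E16.5 (adjusted p 9.78e-05 in the 25-array fit).

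In the dermis, the few matrix genes that were called rose. Of 55 measured collagens and elastic fibre genes 5 rose and none fell (6 and 0 in the 25-array fit), against 2.44% and 2.00% of all genes. The median change was 0.20, with a positive difference in 38 members and a negative one in 17. Fbln5, a fibulin that assembles elastic fibres, stood at 9.65, 9.87 and 9.79 at E18.5, against 8.04, 8.00 and 7.92 at E16.5 and rose 3.44-fold (adjusted p 0.000179), while its second probe set, which differed by 0.01, was near the level of an intensity of 0 at both ages. Ltbp3, which holds latent TGF-beta, rose 3.51-fold (adjusted p 2.04e-05). Its second probe set differed by 0.65, and it was not called from the mean of its probe sets or without probe sets whose names mark shared sequence. Of the 4 called matrix genes with a second probe set, 0 reached 2-fold on it. Eln, which encodes elastin, stood at 12.96, 13.19 and 12.22 at E18.5, against 11.76, 11.36 and 11.41 at E16.5 (adjusted p 0.099 over 26 arrays and 0.00421 over 25). The fibrillar collagens Col3a1 and Col1a1 differed by 0.05 and -0.24 and did not pass the test. Without E18.5 replicate 2, 3 of the 55 were called. Of 12 small leucine-rich proteoglycans 1 rose, Aspn, by 1.23 (adjusted p 0.0439), and of 25 genes of the basement membrane 1 rose, the laminin subunit Lamb2, by 1.16 (adjusted p 0.00124). Aspn was not called without E18.5 replicate 1 or 3 or E16.5 replicate 7 or 8.

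Of 42 measured regulators of fibroblasts and dermal papillae 3 rose and 3 fell, and 5 were called higher without E18.5 replicate 1. Igfbp3, which binds insulin-like growth factors, stood at 10.60, 10.46 and 10.58 at E18.5, against 8.33, 8.21 and 8.14 at E16.5 and rose 4.99-fold (adjusted p 3.57e-07), and its second probe set differed by 1.14. Tgfbi, a matrix protein induced by TGF-beta, rose 4.26-fold (adjusted p 1.21e-05), and its second probe set differed by 1.61. Gpx3, which encodes the secreted glutathione peroxidase, stood at 6.00, 7.53 and 7.60 at E18.5, against 13.32, 10.87 and 11.97 at E16.5, a difference of -5.01 ± 0.528 SE (adjusted p 1.18e-06). Its E16.5 arrays spanned more than 2 units in the order of replicates 6, 8 and 7, the order seen for Krtap13.

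Many fat genes rose. Of 35 measured adipocyte genes 13 rose and 1 fell in both fits, against 2.44% and 2.00% of all genes over 26 arrays. Their median change was 0.65, and their summed intensity was 32802, 36331 and 45982 at E18.5, against 26632, 19289 and 20132 at E16.5. Adipoq, which encodes the fat cell hormone adiponectin, stood at 11.40, 12.69 and 12.97 at E18.5, against 8.20, 4.25 and 4.27 at E16.5. It was listed near 0 on E16.5 replicates 7 and 8 and stood at 8.20 on replicate 6 (difference 6.78 ± 0.638 SE, adjusted p 2.43e-07). Gpd1, which supplies the glycerol backbone of triglycerides, stood at 11.30, 10.72 and 12.73 at E18.5, against 4.80, 4.70 and 4.37 at E16.5 (difference 6.96 ± 0.711 SE, adjusted p 7.58e-07), and its second probe set differed by 3.61. Retn, which encodes resistin, rose 7.10-fold (adjusted p 8.13e-05). Genes of the lipid droplet rose too: Cidec stood at 5.82, 6.70 and 6.77 at E18.5, against 4.15, 4.00 and 4.03 at E16.5 (adjusted p 0.00391) and Plin4 rose 3.39-fold (adjusted p 1.41e-05). Lpl, the lipase that takes up blood fat, rose 3.37-fold (adjusted p 0.00175, second probe set 1.87).

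Fabp4, the fatty acid carrier of fat cells, was higher on both probe sets read here, by unequal amounts. Its brightest stood at 12.75, 12.76 and 12.96 at E18.5, against 11.65, 11.32 and 11.34 at E16.5 (adjusted p 0.00317), and its second, dimmer one differed by 7.00. Pparg, the regulator of fat cell formation, differed by 0.66 (adjusted p 0.266) and Cebpa by -0.49 (adjusted p 0.274). The member that fell, Dgat2, is also an epidermal gene. Of 13 brown fat genes 2 rose, Cox7a1 (3.12-fold, adjusted p 0.0114) and Elovl3 (2.42-fold, adjusted p 0.000328), and neither was called without E18.5 replicate 2. Ucp1, the defining gene of brown fat, stood at 4.53, 4.77 and 4.59 at E18.5, against 4.36, 5.08 and 4.80 at E16.5, near the level of an intensity of 0 at both ages.

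The pigment genes that were called rose. Of 18 measured melanocyte genes 6 rose and none fell in both fits, against 2.44% and 2.00% of all genes over 26 arrays. The median change was 0.77. Dct, an enzyme of melanin synthesis, stood at 10.61, 11.36 and 11.13 at E18.5, against 8.59, 9.34 and 9.37 at E16.5 and rose 3.82-fold (adjusted p 0.00538). Pmel, the fibre protein of the melanosome, rose 2.64-fold (adjusted p 0.00148), Tyr, the first enzyme of the pathway, 2.04-fold (adjusted p 0.0123), and Rab27a, which moves melanosomes, 2.95-fold (adjusted p 0.000816). Tyrp1, another enzyme of the pathway, stood at 13.29, 13.78 and 13.47 at E18.5, against 4.05, 10.90 and 11.34 at E16.5. It was listed near 0 on E16.5 replicate 6 while replicates 7 and 8 were bright (difference 4.75, adjusted p 0.0271). Tyrp1 was not called without that array or without any 1 of the E18.5 arrays, and Tyr was not called without E18.5 replicate 2 or 3 or E16.5 replicate 6. Tyr and Rab27a were not called from the mean of their probe sets. Mitf and Sox10, the transcription factors of the lineage, differed by 0.21 and -0.02 and did not pass the test.

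Skeletal muscle genes moved in both directions. Of 51 measured members 5 rose and 4 fell, against 2.44% and 2.00% of all genes, with a median change of -0.09. The E18.5 arrays carried them unequally: 36 of the 51 had replicate 1 highest, replicate 2 next and replicate 3 lowest, as did 30 of the 38 whose E18.5 arrays spanned at least 0.5. The summed intensity of the list was 132223, 105582 and 79389 at E18.5, against 88363, 89170 and 95978 at E16.5. Among those that rose were genes of fast fibres. Myh1, a fast adult myosin, stood at 8.85, 9.93 and 9.30 at E18.5, against 5.51, 5.50 and 5.35 at E16.5 (rise 15-fold, adjusted p 4.5e-08, second probe set 3.46), and Mybpc2, the fast myosin-binding protein, at 10.30, 10.27 and 9.52 at E18.5, against 4.00, 4.36 and 6.06 at E16.5 (difference 5.22 ± 0.520 SE, adjusted p 5.32e-07). Actn3, the fast alpha-actinin, rose 3.77-fold (adjusted p 1.47e-05), and Myh8, the perinatal myosin, 2.02-fold (adjusted p 0.0203). Among those that fell were genes of slow fibres. Myh7, the slow myosin, stood at 6.10, 5.40 and 5.84 at E18.5, against 8.81, 8.04 and 8.68 at E16.5 (fall 6.64-fold, adjusted p 9.55e-06), and the slow troponins Tnni1 and Tnnc1 fell 3.65-fold (adjusted p 0.000256) and 2.62-fold (adjusted p 0.000671). Myog, a regulator of muscle differentiation, fell 2.83-fold (adjusted p 0.0288). Myh8 was not called without E18.5 replicate 1 or 2 or E16.5 replicate 6 or 8, and Myog without E18.5 replicate 2 or 3 or any E16.5 array. Casq1, the fast-fibre calsequestrin, rose 2.74-fold (adjusted p 0.000299). Acta1, the skeletal actin, differed by 0.34 (adjusted p 0.666). Of 16 smooth muscle genes 1 rose, Myh11, by 1.68 (adjusted p 0.00179), and its second probe set was at the level of an intensity of 0 at both ages.

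**Figure D4:**
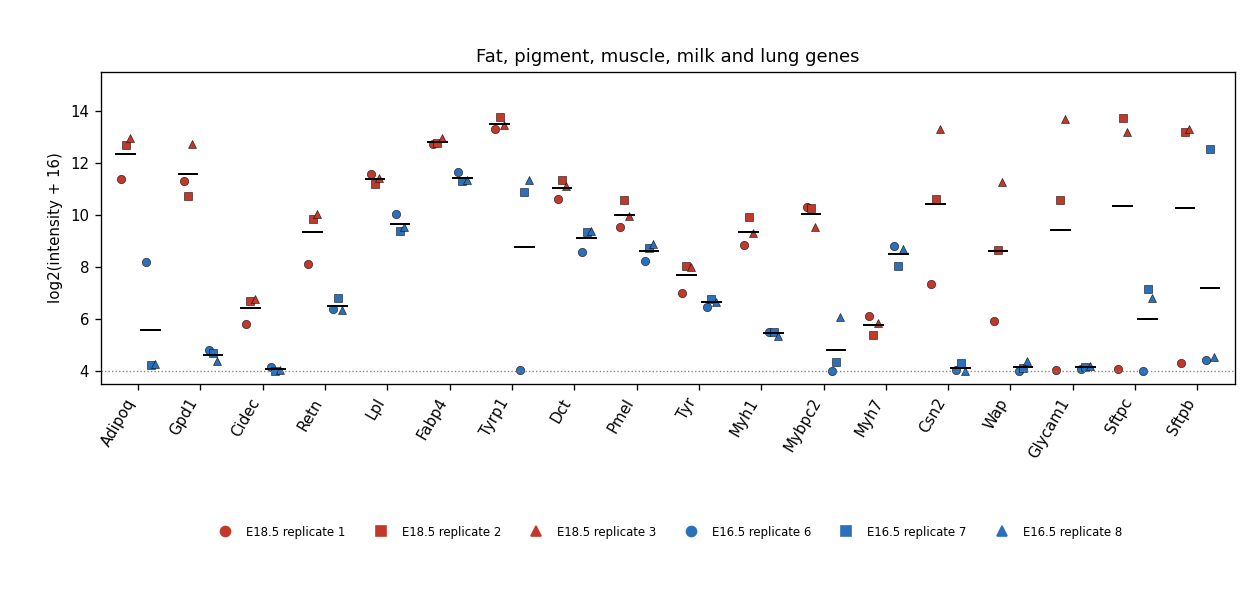
log2(intensity + 16) of fat, pigment, muscle, milk and lung genes on each of the 6 arrays, E18.5 in red and E16.5 in blue, with 1 symbol per replicate and a black line at each group's mean. The fat and pigment genes and the fast muscle genes Myh1 and Mybpc2 are higher at E18.5 and slow Myh7 is lower, and the milk and lung genes on the right differ by several units between arrays of the same age.

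The red cell genes that were called fell. Of 23 measured members 5 fell and none rose, against 2.00% and 2.44% of all genes, with a median change of -0.28. The embryonic globins Hba-x and Hbb-y stood at 5.90, 5.38 and 5.21 at E18.5, against 8.95, 7.25 and 8.02 at E16.5 for Hba-x and at 5.52, 4.46 and 4.65 at E18.5, against 8.29, 5.84 and 6.83 at E16.5 for Hbb-y, with adjusted p of 0.000869 and 0.0062. Slc4a1, the anion exchanger of the red cell membrane, fell 3.55-fold (adjusted p 0.0237). Replicate 6 was the highest E16.5 array in all 10 members whose E16.5 arrays spanned at least 0.5, and the summed intensity of the list was 43216, 42980 and 42503 at E18.5, against 47749, 31236 and 29322 at E16.5. Without E16.5 replicate 6, 2 members were called, with Hbb-y and Slc4a1 among those lost, and without E18.5 replicate 2, 3 were, again without Slc4a1.

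Vascular and immune lists showed few calls. Of 30 endothelial genes 1 rose and 1 fell, against 2.44% and 2.00% of all genes. Apln, which encodes the peptide apelin, rose 2.01-fold (adjusted p 0.0382), a call that held without E18.5 replicate 3 and was lost without any 1 of the other 5 arrays. The one that fell was Cdh5, the cadherin of endothelial junctions, with 9.31, 9.07 and 8.88 at E18.5, against 13.01, 13.02 and 13.28 at E16.5, a fall of 16.1-fold (adjusted p 5.34e-12, second probe set -2.62). Other defining genes of endothelium did not pass the test: Pecam1 differed by 0.28 (adjusted p 0.574) and Kdr by -0.09 (adjusted p 0.91). Of 38 genes of macrophages and Langerhans cells 2 rose, 33 had a positive difference, and the median change was 0.40. C1qb, a subunit of complement C1q, stood at 8.28, 9.07 and 8.24 at E18.5, against 6.31, 6.26 and 5.82 at E16.5 and rose 5.28-fold (adjusted p 2.81e-07), and the other subunit genes C1qa and C1qc differed by 0.33 and 0.66. Of 17 mast cell genes 2 rose and 1 fell, 13 had a negative difference, and the median change was -0.43. The receptor gene Mrgprb1 rose 3.72-fold (adjusted p 5.49e-05) and the protease gene Mcpt4 2.94-fold (adjusted p 0.00289), and Mcpt4 was not called in the fit on the 6 skin arrays. Gata2, a transcription factor of the lineage, fell 2.01-fold (adjusted p 0.00598), a call lost without E18.5 replicate 3 or E16.5 replicate 8. No gene of the 24 of T cells and other lymphocytes or of the 17 of neutrophils was called with limma. The largest change was -0.87 in Nkg7 (adjusted p 0.00417) for the lymphocyte list and 0.94 in Camp (adjusted p 0.0497) for the neutrophil list, and the 25-array fit called none either. Cd3e, the defining T cell gene, stood at 4.00, 4.37 and 4.07 at E18.5, against 4.00, 4.12 and 4.00 at E16.5, near the level of an intensity of 0.

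Of 32 genes of neurons and Schwann cells 1 rose and 1 fell, against 2.44% and 2.00% of all genes. Ngfr, the neurotrophin receptor, stood at 7.83, 7.47 and 6.58 at E18.5, against 9.18, 9.01 and 9.25 at E16.5 and fell 3.62-fold (adjusted p 0.000208, second probe set -1.73). Of 14 Merkel cell genes 2 rose. Cpe, a peptide-processing enzyme, stood at 10.11, 10.41 and 10.44 at E18.5, against 7.87, 7.80 and 7.57 at E16.5 and rose 5.96-fold (adjusted p 3.03e-09), and Chga, a granin, rose 3.71-fold (adjusted p 0.000836). The defining Merkel cell keratin Krt20 stood at 5.08, 5.14 and 5.12 at E18.5, against 4.88, 5.06 and 5.08 at E16.5 and the factor Sox2 differed by 0.18 (adjusted p 0.954), and neither passed the test. Of 19 cartilage and bone genes 1 rose, Sox6, by 1.1 (adjusted p 0.00184), and it was not called without E18.5 replicate 3.

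The general lists of growth and metabolism changed in few members. Of 74 cell cycle genes 1 rose and 1 fell, with a median change of -0.04. Aurkb, the mitotic kinase, was the one that rose, with 8.12, 8.47 and 8.08 at E18.5, against 6.19, 4.87 and 5.53 at E16.5 (adjusted p 6.96e-07). Its second probe set differed by only 0.13, and in skin it was the brighter one at both ages (mean 8.505 at E18.5 and 8.377 at E16.5). The rise of Aurkb thus rests on the probe set that was dimmer in skin. Without E18.5 replicate 1, 2 members were called higher and 5 lower. Mki67 and Top2a, markers of cycling cells, differed by -0.23 and -0.18 and did not pass the test. Of 21 cholesterol genes 1 fell, Sc5d, which split at E18.5 with 12.22, 7.01 and 7.18 at E18.5, against 12.09, 12.12 and 12.11 at E16.5, and was not called without E18.5 replicate 2. Of 34 imprinted and fetal growth genes none rose and 4 fell (6 in the 25-array fit), with a median change of -0.30. Igf2bp1, an RNA-binding protein of fetal tissue, fell 2.72-fold (adjusted p 0.000449, second probe set -1.42), and Zim1, an imprinted zinc finger gene, 3.32-fold (adjusted p 4.93e-05).

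Of 31 glucocorticoid and stress genes 4 rose and 1 fell. The metallothioneins Mt2 and Mt1, which bind zinc, rose 2.84-fold (adjusted p 0.0188) and 2.06-fold (adjusted p 0.0246), and without E18.5 replicate 3 no member was called higher. Without E16.5 replicate 6, 2 were called higher and none lower, and neither metallothionein was called. Both were also lost without E18.5 replicate 2, and Mt1 without E16.5 replicate 7. Of 30 interferon and antigen presentation genes 3 rose and none fell (5 and 0 in the 25-array fit), with a median change of 0.47. Ifitm1 stood at 9.59, 10.38 and 9.71 at E18.5, against 7.93, 8.34 and 8.11 at E16.5 and rose 3.40-fold (adjusted p 0.000882), and Ifi27 rose 3.37-fold (adjusted p 4.65e-05, second probe set 1.63). Of 18 clock genes 1 rose and 2 fell, Ciart, a clock repressor, falling 2.33-fold (adjusted p 5.49e-05) and the nuclear receptor Rora 2.29-fold (adjusted p 0.0222, second probe set -1.1). Rora was not called without E18.5 replicate 2 or any E16.5 array. Of 25 aquaporins and ion transporters 3 rose and 3 fell. Aqp1, the water channel of vessels, rose 2.03-fold (adjusted p 0.000627) and was not called without E18.5 replicate 1, and Atp1b1, a sodium pump subunit, stood at 6.90, 7.04 and 7.27 at E18.5, against 9.01, 8.89 and 10.29 at E16.5 (adjusted p 2.29e-06, second probe set -4.48).

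Among the largest changes outside the lists, some were seen on 1 probe set and not on the second. Saa1, which encodes an acute-phase protein, stood at 4.69, 4.04 and 4.13 at E18.5, against 11.14, 10.45 and 10.84 at E16.5 (difference -6.52 ± 0.193 SE, adjusted p 3.17e-15), and its second probe set fell as well (-5.03). Sesn3, which encodes a stress-induced sestrin, stood at 7.42, 6.13 and 7.69 at E18.5, against 12.59, 13.18 and 13.24 at E16.5 (adjusted p 1.44e-09), and its second probe set differed by 0.06. The same was seen for Setd7, a lysine methyltransferase (-4.51 on the brightest and 0.79 on the second probe set) and for E130308A19Rik (-4.61 and -0.07). Tmem30c fell by 6.25 on its brightest probe set (adjusted p 2.81e-05), and its second was near the level of an intensity of 0 at both ages. Stom, which encodes the membrane protein stomatin, rose by 5.35 on its brightest probe set (adjusted p 3.65e-05) and differed by 0.82 on its second. Rad9a, Arid3a and Ap2a1 fell by 5.46, 5.16 and 4.68 (adjusted p 1.21e-05, 5.76e-12 and 1.39e-12) and have 1 probe set each. Arrays of an age lay within 1 unit of each other in all 3, and Arid3a read 4.91, 5.04 and 5.17 at E18.5, against 10.23, 10.17 and 10.21 at E16.5.

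The second probe sets of all called genes were counted in the same way. Of 444 genes that rose 263 had a second probe set, which differed the same way in 180 and at least 2-fold in 51. Of 364 that fell 204 had one, which differed the same way in 149 and at least 2-fold in 37. A dim second probe set can miss a change, so the count was repeated for second probe sets at a level of 8 or more at either age. Of 121 such genes that rose 28 had the 2-fold change on both probe sets, and in 77 the second differed under 1.5-fold or the other way. Of 61 that fell the counts were 20 and 32. Probe sets of 1 gene can read different transcripts, which was not tested.

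**Figure D5:**
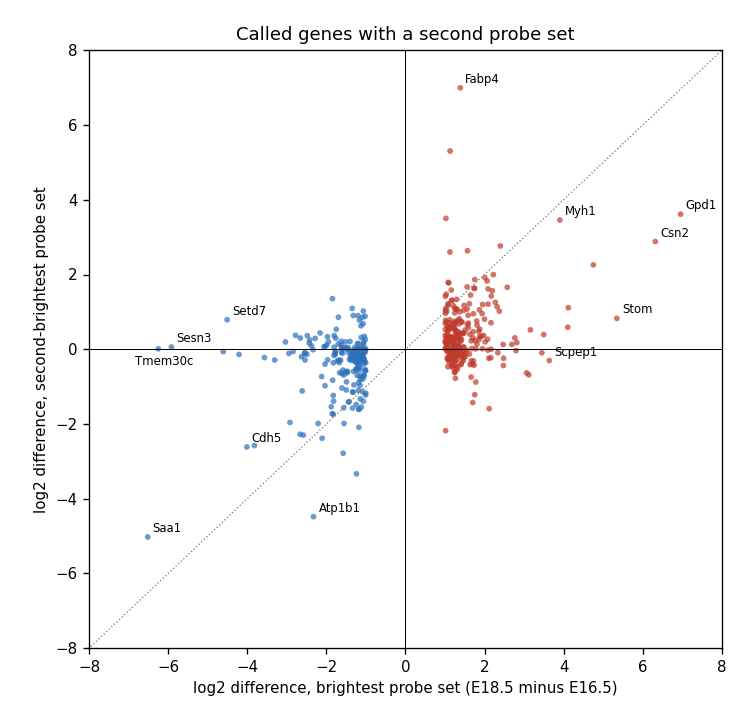
Log2 difference (E18.5 minus E16.5) of the brightest probe set (x axis) and of the second-brightest probe set (y axis) for each called gene that has both, red where the brightest rose and blue where it fell, with the dotted diagonal marking equal differences. Saa1, Cdh5, Myh1, Gpd1 and Csn2 differ the same way on both, and Sesn3, Setd7 and Stom lie within 1 unit of 0 on the second.

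Some genes were high on 1 or 2 arrays of an age and near 0 on the rest. Within-age ranges of 4 units or more were found in 39 genes at E18.5 and 32 at E16.5, while the median range was 0.38 at E18.5 and 0.19 at E16.5, and 41 called genes had a range of 3 or more. The widest ranges at E18.5 were those of the surfactant gene Sftpc, the milk gene Glycam1 and the surfactant gene Sftpb. Sftpc stood at 4.07, 13.73 and 13.21 at E18.5, against 4.00, 7.15 and 6.82 at E16.5, and Sftpb at 4.32, 13.21 and 13.29 at E18.5, against 4.43, 12.54 and 4.55 at E16.5. E18.5 replicate 1 and E16.5 replicates 6 and 8 were near 0 for Sftpb and the other arrays were bright. Of 8 genes of lung surfactant and airway, a list drawn up after these values were seen, 1 was called higher, the airway secretoglobin Scgb1a1, with 5.29, 7.34 and 7.38 at E18.5, against 4.87, 5.35 and 5.09 at E16.5 and overlapping ages, a call lost without E18.5 replicate 2 or 3 or any E16.5 array.

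Milk protein genes rose to unequal levels on the E18.5 arrays. Of 8 genes, also listed after their values were seen, 5 were called higher, and 7 had E18.5 replicate 3 highest, replicate 2 next and replicate 1 lowest. Csn2, which encodes beta-casein, stood at 7.35, 10.62 and 13.31 at E18.5, against 4.03, 4.29 and 4.00 at E16.5 (adjusted p 0.00184, second probe set 2.88), and Wap, the whey acidic protein, at 5.94, 8.67 and 11.28 at E18.5, against 4.00, 4.12 and 4.38 at E16.5 (adjusted p 0.00104). Glycam1, a mucin-like protein of milk, stood at 4.04, 10.57 and 13.68 at E18.5, against 4.06, 4.16 and 4.21 at E16.5, with E18.5 replicate 1 near 0, and was not called without E18.5 replicate 2 or 3 or any E16.5 array. The summed intensity of the list was 253, 3698 and 27443 at E18.5, against 32, 38 and 41 at E16.5. Without E18.5 replicate 3, 2 of the 8 were called, and 3 were without any 1 of the E16.5 arrays. The fit on the 6 skin arrays called 1, Csn2, with an adjusted p of 0.0391 for Csn2 and 0.0712 for Wap. The part of mammary tissue or of other RNA in these values was not tested.

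Further genes with a wide range at E18.5 were bright on most arrays and low on 1 or 2. C2cd5 stood at 4.52, 4.84 and 12.86 at E18.5, against 12.05, 12.44 and 12.24 at E16.5, so E18.5 replicates 1 and 2 were low and the remaining 4 arrays bright. Tmem102 stood at 4.08, 11.42 and 10.55 at E18.5, against 11.46, 11.24 and 11.44 at E16.5, and Tmem132c at 12.86, 5.64 and 12.68 at E18.5, against 13.14, 13.00 and 13.18 at E16.5. Dusp10, a phosphatase of MAP kinases, stood at 10.67, 5.11 and 11.77 at E18.5, against 10.91, 10.59 and 10.81 at E16.5, with replicate 2 alone low, and Adh6a at 4.92, 5.38 and 11.40 at E18.5, against 7.29, 10.67 and 10.66 at E16.5. H2-Aa, which encodes a class II antigen-presenting chain, was high on E18.5 replicate 1 and E16.5 replicate 8 (11.63, 4.15 and 4.03 at E18.5, against 4.08, 4.02 and 8.95 at E16.5).

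At E16.5 the widest range was that of Ppp1r12b, a subunit of myosin phosphatase, which stood at 13.85, 13.96 and 13.96 at E18.5, against 13.73, 4.01 and 13.78 at E16.5 and was listed near 0 on replicate 7 alone. Capn12, a calpain of the hair follicle, stood at 4.94, 4.94 and 5.06 at E18.5, against 5.34, 13.53 and 13.29 at E16.5. It was called lower (adjusted p 0.00242) although E16.5 replicate 6 was as low as the E18.5 arrays to within 0.5. Tpsab1, a mast cell tryptase, stood at 10.51, 4.22 and 7.05 at E18.5, against 4.14, 10.05 and 9.52 at E16.5, and the prostaglandin receptor gene Ptgfr at 4.76, 4.50 and 10.76 at E18.5, against 10.20, 10.22 and 4.66 at E16.5. Smco2 was high on 1 array of each age (4.17, 9.96 and 4.03 at E18.5, against 9.53, 4.03 and 4.03 at E16.5). Cep295nl stood at 9.74, 9.79 and 9.64 at E18.5, against 9.43, 4.02 and 4.08 at E16.5 and Oard1 at 8.78, 8.14 and 9.85 at E18.5, against 4.42, 4.45 and 9.75 at E16.5. Oard1 was not called without E18.5 replicate 1 or 3 or E16.5 replicate 6 or 7. The low E16.5 arrays of these genes other than Capn12 lay within 1 unit of the level of an intensity of 0. Genes under an intensity of 1 on an array and over 240 on another of the same age numbered 11 at E18.5 and 12 at E16.5. Of 39 ribosomal protein genes 1 was under 1 on any skin array. Whether a value near 0 is a failed estimate or an absent transcript was not tested.

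The change in skin was set against the change in bladder between the same ages, to show where it differed from that of another organ. The bladders were from Get1 +/- mice at E18.5 and from wild-type CB6 mice at E16.5, 3 arrays each, so age and genotype cannot be told apart there. The highest deposited intensity of an array was 71782 to 119744 in skin and 19538 to 20341 in bladder, and the scaling behind this was not tested. The difference of the changes passed the test in 1747 genes (9.60%), 818 higher in skin (4.50%) and 929 lower (5.11%). Of the 444 genes that rose in skin 243 were among those higher, and of the 364 that fell 254 were among those lower. Both measures hold the same change in skin, so much of this overlap is built in. With the intensities as deposited 35.9% of 2010 such calls were higher in skin, against 46.8% after quantile normalization. In bladder itself 1117 genes were called (6.14%), 52 of them also called in skin the same way and 24 the opposite way.

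The genes with the largest differences of change were those already described. Krt27, Krt35, Adipoq, Krt25 and Gpd1 lay highest, with skin minus bladder values of 8.89, 8.57, 7.10, 6.86 and 6.66. In bladder Krt27 averaged 4.41 ± 0.135 at E18.5 and 5.16 ± 0.083 at E16.5, and Adipoq 4.51 ± 0.227 at E18.5 and 4.83 ± 0.315 at E16.5 (SD, n = 3 each). Where a gene was near the level of an intensity of 0 in bladder at both ages, the value restates its change in skin. At the other end stood 2310034C09Rik, Krtap13, Saa1, Sesn3 and 2310057N15Rik, with -8.38, -7.18, -7.06, -5.89 and -5.84. In bladder Sesn3 averaged 9.05 ± 0.113 at E18.5 and 9.08 ± 0.112 at E16.5 (SD, n = 3 each), with a difference of -0.03 (adjusted p 0.975).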

How the data were processed

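The 3′ expression table of the series holds 26 arrays, 6 of them analysed here as dorsal skin. Its values are linear intensities that the authors deposited. The submitters' processing notes name PLIER 2.0 and Affymetrix Expression Console 1.1.1 as the software, with normalization between arrays not given in the sources used here. Total RNA was labelled with a random-primed kit, per the labels' protocols. The deposited intensities were converted to log2(intensity + 16) and quantile-normalized over the 26 arrays. Of 45101 probe sets 34958 have 1 gene in the platform annotation, 932 several and 9211 none, and symbols were updated through RefSeq for 34897. Each of 18194 genes was read by its probe set of highest mean over the 26 arrays, called its brightest, which need not be the brightest in skin. limma 3.58.1 (R 4.3.3) was fitted with lmFit and eBayes over 9 groups, two-sided, with Benjamini-Hochberg adjustment, and genes at adjusted p under 0.05 and 2-fold or more were called.

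The comparison and the 36 gene lists (1090 of 1219 genes measured) were chosen with earlier results of these data known. Genes were named by rule: the 15 largest rises and falls without overlap between the ages, up to 6 called members of each list and its defining members, the 10 widest within-age ranges per age, and the 5 largest differences from bladder in each direction. Krt31, Krt72, Krt75 and 2310057N15Rik were added after their values were seen. The 200 bases before transcript starts came from RefSeq (GRCm38.p6). No depth applies to arrays, and 3 per age limit the precision. In simulated data for E18.5 against E16.5 on 18194 genes the test recovered 41.8% of 2-fold, 89.6% of 3-fold and 93.9% of 4-fold changes. These changes were planted only in genes above a set level at E16.5, with normal noise of the pooled spread of each gene. The rates therefore do not cover dim genes or genes that split within an age. A true 2-fold change also lies at the limit of the call rule itself. Alternatives covered the scaling, the pseudocount, dim genes, probe set choice, the arrays fitted and each skin array left out. The table has no detection calls.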

Additional observations from a re-analysis of the deposited data

Results flagged for a closer look

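The change between the ages differed from that in bladder, by a test of the difference itself, most widely in 16 named genes. Bladder at E18.5 was Get1 +/-, so its age and genotype cannot be told apart. Higher in skin by this measure (change in skin minus change in bladder, log2) were the hair keratins Krt27 at 8.89, Krt35 at 8.57, Krt25 at 6.86 and Krt71 at 6.42, the fat genes Adipoq at 7.10 and Gpd1 at 6.66, the pigment gene Tyrp1 at 6.52 and the milk gene Csn2 at 6.36. Lower were 2310034C09Rik at -8.38 and its neighbours Krtap13 at -7.18 and 2310057N15Rik at -5.84, the acute-phase gene Saa1 at -7.06, Sesn3 at -5.89, the epidermal keratin Krt77 at -5.71, the follicle calpain Capn12 at -5.62 and Rad9a at -5.57. Tyrp1, Capn12, Csn2, Krt35 and Adipoq varied by several units within an age in skin, and Sesn3 differed by 0.06 between the ages in skin on its second probe set. Krt25, Krt71, Adipoq, Krtap13, 2310034C09Rik, 2310057N15Rik and Krt77 were near the level of an intensity of 0 in bladder at both ages. For these genes the value restates the change in skin. In bladder Krt77 averaged 4.04 at E18.5 and 4.1 at E16.5, while Rad9a averaged 10.7 at E18.5 and 10.57 at E16.5.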

How the results depend on the processing

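No paired analysis was possible because the replicate numbers in the titles of the E18.5 skin arrays are compound and those of the E16.5 arrays are not, so that fewer than 2 could be shared. The 808 calls became 2308 with no fold limit, 505 with a pseudocount of 64, 507 with the mean of all probe sets of a gene, and 88 where a second probe set had to show the same 2-fold difference. This last alternative can use only the 9012 genes with a second probe set, and the cause of the others was not tested. Leaving out 1 skin array at a time gave 686 (without E16.5 replicate 8) to 932 calls (without E18.5 replicate 1). The fit on the 6 arrays gave 740, arrays shifted to a common median 924, a pseudocount of 1 992, and genes at an intensity of 1 or more on all 6 arrays 775. The values as deposited gave 996, 334 higher and 662 lower. The median change of all genes was 0.127 with the common median and -0.074 as deposited, against 0.035. The 1747 calls against bladder became 2664 with no fold limit and 880 with a pseudocount of 64, and ran between 1394 (without E16.5 skin replicate 8) and 1850 (without E18.5 bladder replicate 1) with 1 array left out. Of 126 named genes that were called, 64 kept the call under every refit that tested them and 62 lost it under at least 1, and none reversed. These counts leave out the rule on a second probe set and the rule on an intensity of 1 or more. A gene that a refit did not test was not counted as lost: with genes above the table median only, 113 of the 126 were tested and all kept the call. A pseudocount of 1 lost 33 of the 126, the fit on the 6 arrays 21 and leaving out E18.5 replicate 2 24.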
